A study of Mus musculus with 4 samples.

Results

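The Ifitm family was examined through 3 of its genes, Ifitm1, Ifitm2 and Ifitm3, which were taken by their symbols from the 56748 genes listed in the deposited RNA-seq tables of E14 mouse embryonic stem cells (mESCs). The cells were grown without feeder cells in serum and leukemia inhibitory factor. WT cells (WT1 and WT2) were compared with Npac KO cells (KO1 and KO2), in which Npac, a reader of methylated histone H3 listed as Glyr1, had been targeted with CRISPR/Cas9. KO1 and KO2 are separate knockout lines with 1 library each, and no source says whether WT1 and WT2 came from separate cultures, so p-values measure the spread between these libraries, which may be technical. The total count lay between 15850805 and 16965120 reads per library.

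Ifitm genes encode small membrane proteins, named for their induction by interferon, that sit at the cell surface and in endosomes and hinder the fusion of enveloped viruses with the cell. In the mouse embryo Ifitm3, also called fragilis, marks the cells from which the primordial germ cells arise, and pluripotent cells are known to carry Ifitm transcripts without added interferon. Interferons act through receptor-bound kinases on a complex that holds Stat2 and Irf9 and binds the interferon-stimulated response element (ISRE) of target promoters. Interferon gamma acts through another element, the interferon-gamma activated site (GAS).

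The promoter windows of the 3 genes are shown since these response elements are the usual reading of the family name. Each runs from 250 bases before to 50 bases after the start site in RefSeq (GRCm38.p6), and each is printed 5′ to 3′ in the direction of the gene. Capitals mark matches to the ISRE core, GAAA followed after any 2 bases by a second GAAA, or to the GAS motif TTCNNNGAA, both searched on both strands. The windows are chr7:140967826-140968125 on the plus strand for Ifitm1, chr7:140955912-140956211 on the minus strand for Ifitm2 and chr7:141010695-141010994 on the minus strand for Ifitm3.
Ifitm1: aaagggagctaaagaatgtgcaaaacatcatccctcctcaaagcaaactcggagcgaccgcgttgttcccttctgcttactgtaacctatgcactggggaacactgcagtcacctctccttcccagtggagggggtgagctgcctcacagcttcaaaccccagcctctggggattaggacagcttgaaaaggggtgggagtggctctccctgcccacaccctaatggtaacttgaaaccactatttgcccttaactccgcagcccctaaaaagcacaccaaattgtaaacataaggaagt
Ifitm2: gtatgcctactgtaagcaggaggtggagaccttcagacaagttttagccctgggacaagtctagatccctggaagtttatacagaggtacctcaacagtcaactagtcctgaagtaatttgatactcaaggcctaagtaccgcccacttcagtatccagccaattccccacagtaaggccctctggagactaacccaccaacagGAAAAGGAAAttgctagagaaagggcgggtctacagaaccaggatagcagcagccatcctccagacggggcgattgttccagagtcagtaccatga
Ifitm3: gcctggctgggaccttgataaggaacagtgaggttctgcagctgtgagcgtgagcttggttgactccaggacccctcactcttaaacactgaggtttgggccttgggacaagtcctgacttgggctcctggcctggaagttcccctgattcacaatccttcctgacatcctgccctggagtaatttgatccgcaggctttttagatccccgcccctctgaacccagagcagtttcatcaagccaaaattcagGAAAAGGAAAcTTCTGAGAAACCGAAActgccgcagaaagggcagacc

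The Ifitm3 window held 2 ISRE core matches, GAAAAGGAAA at bases 3 to 12 and GAAACCGAAA at bases 20 to 29 counted from the start site, with a GAS match, TTCTGAGAA, between and overlapping the second at bases 14 to 22. The Ifitm2 window held 1 ISRE core match, GAAAAGGAAA, the same letters as the first match of Ifitm3, at bases -46 to -37. The Ifitm1 window held neither motif. Among all 32851 windows of this length in the table, 3.44% held the ISRE core and 0.225% held it 2 or more times, and 8.30% held the GAS motif. A match is a run of letters and not a measured binding site, and no match says only that these letters are not in this window.

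In the deposited tables the 3 genes lie within 55.9 kb of chromosome 7, with Ifitm2 from 140534750 to 140535900 and Ifitm3 from 140589499 to 140590683 on the minus strand, and Ifitm1 from 140547134 to 140549738 on the plus strand between them. These positions are not those of GRCm38, although the submitters' notes name mm10. Only 2.76% of the 52073 gene identifiers shared with the GENCODE M21 annotation of GRCm38 had the same position there, so the build of the deposited positions is not given in the sources used here. The identifiers are ENSMUSG00000025491 for Ifitm1, ENSMUSG00000060591 for Ifitm2 and ENSMUSG00000025492 for Ifitm3.

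Glyr1 itself was read first, as a check of the labels. It had 3961 reads in WT1 and 3115 in WT2, against 744 in KO1 and 888 in KO2, so that the KO libraries were below the WT libraries. The fold change was 0.227, with a 95% confidence interval of -2.67 to -1.61 on the log2 scale (adjusted p = 0.00174, by the quasi-likelihood test of edgeR).

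Ifitm3 was the 1 gene of the 3 that passed both thresholds, a fold change over 1.5 and a p under 0.05 after adjustment by the Benjamini-Hochberg method. It was read 1048 and 685 times in WT1 and WT2, and 2179 and 1841 times in KO1 and KO2. Scaled to the library sizes by the TMM method, these were normalized read counts (CPM) of 68.6, 39.2, 140.2 and 106. The WT mean was 53.9 ± 20.8 CPM and the KO mean 123 ± 23.9 CPM (SD, n = 2 each). Both Npac KO libraries lay above both WT libraries, as they did for 33.2% of the 18157 genes tested. The fold change was 2.29 (log2 fold change 1.19, 95% confidence interval 0.53 to 1.86, adjusted p = 0.0248 from edgeR). Among all genes tested, 11.0% were called higher in Npac KO cells, so 1 of 3 members rests on a background in which such calls are common. With the KO1 library left out the log2 fold change was 0.98 and the adjusted p was 0.0840, and the call was lost, whereas it was kept with any of the other 3 libraries left out.

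Ifitm1 had a fold change of similar size and a wider spread. Its reads numbered 1893 and 936 in WT1 and WT2, and 3376 and 2548 in KO1 and KO2, or 124, 53.6, 217 and 147 CPM. Again both KO libraries lay above both WT libraries, but KO2 and WT1 lay close to each other, and the means were 88.8 ± 49.8 and 182 ± 49.5 CPM (SD, n = 2 each). The fold change of 2.05 (log2 fold change 1.04, 95% confidence interval 0.16 to 1.92) did not pass the test (adjusted p = 0.0862 from edgeR). The gap between the WT libraries was 1.21 on the log2 scale, larger than that of 96.0% of the 11682 genes compared, whose median gap was 0.31. The log2 fold change was 1.74 without the WT1 library (adjusted p = 3.79e-07) and 0.55 without the WT2 library, which is under the fold threshold. Without the KO2 library it was 1.31 (adjusted p = 0.0453, edgeR in each case), and without KO1 it was 0.73 (adjusted p = 0.253). DESeq2, run on all 4 libraries, called the gene (adjusted p = 0.0180).

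Ifitm2 had the smallest fold change of the 3. It was read 2341 and 2433 times in WT1 and WT2, and 2786 and 2613 times in KO1 and KO2, which is 153, 139, 179 and 151 CPM. The groups overlapped, since KO2 lay just under WT1, with means of 146 ± 9.92 and 165 ± 20.0 CPM (SD, n = 2 each). The fold change was 1.13 (log2 fold change 0.17, adjusted p = 0.527 from edgeR), and its 95% confidence interval on the log2 scale, -0.25 to 0.60, leaves room for a rise of about the fold threshold but not for one the size of that fitted for Ifitm3. Whether the change of Ifitm2 differs from those of Ifitm1 and Ifitm3 was followed through their ratios within each library.

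**Figure D1:**
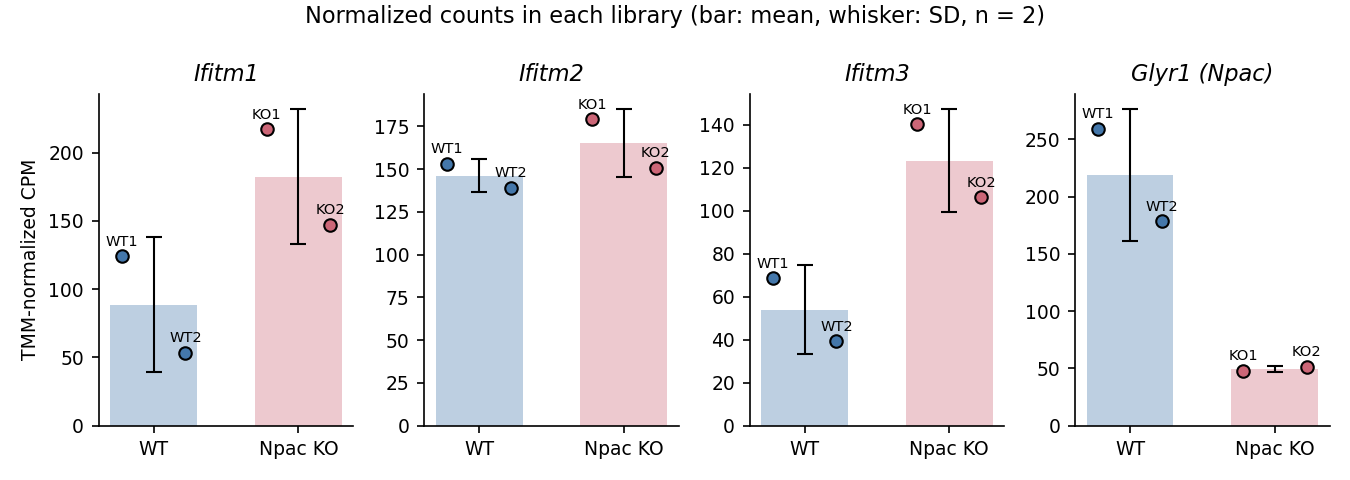
TMM-normalized CPM (y axis, from 0) of Ifitm1, Ifitm2, Ifitm3 and Glyr1 in WT and Npac KO cells, with 1 point per library, bars for the mean and whiskers for the SD (n = 2). For Ifitm1 and Ifitm3 both KO points lie above both WT points, for Ifitm2 the points overlap, and for Glyr1 the KO points lie near 50 CPM.

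Levels of different genes were compared per length with the deposited FPKM (fragments per kilobase of gene length, scaled to library depth). Ifitm2 had the highest FPKM in each of the 4 libraries, at 232 and 211 in WT1 and WT2, and 273 and 226 in KO1 and KO2. Ifitm3 followed at 101, 57.3, 206 and 154 FPKM, and Ifitm1 at 113, 48.6, 198 and 132 FPKM in the same order of libraries. The order of Ifitm1 and Ifitm3 was not fixed, since Ifitm1 was the higher in WT1 and Ifitm3 in the other 3 libraries. Ifitm2 stood between rank 136 and rank 148 among 21970 protein-coding genes. Ifitm3 moved from rank 334 and 710 in the WT libraries to 177 and 215 in Npac KO cells, and Ifitm1 from rank 293 and 881 to 190 and 256.

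Summed over the 3 genes, the level was 446 and 317 FPKM in WT1 and WT2, and 677 and 513 FPKM in KO1 and KO2, and the KO mean was 1.56 times the WT mean. Ifitm2 made up 52.2% of this sum in WT1 and 66.6% in WT2, but 40.3% in KO1 and 44.2% in KO2. Ifitm3 made up 22.6% and 18.1% in WT cells and 30.5% and 30.1% in Npac KO cells. The share of Ifitm1 was 25.3% and 15.3% in WT cells and 29.2% and 25.8% in Npac KO cells. For each gene the shares of the 2 groups did not overlap, and the exact two-sided permutation p was 0.333 in each case, the smallest that 2 libraries against 2 allow. For Ifitm1 the shares of WT1 and KO2, 25.3% and 25.8%, lay close to each other. The 3 shares of a library make up its whole, so they are tied to each other and are not 3 separate results. The difference of the mean shares, KO minus WT, was 7.22 percentage points for Ifitm1, -17.1 for Ifitm2 and 9.92 for Ifitm3. For Ifitm1 it was 2.2 points without WT2 and 12.2 without WT1, and for Ifitm2 it was -9.95 points without WT2.

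The ratio of Ifitm3 to Ifitm2 per length was 0.432 in WT1 and 0.272 in WT2, against 0.756 in KO1 and 0.681 in KO2. The ratio of Ifitm1 to Ifitm2 was 0.484 and 0.230 in WT cells and 0.726 and 0.584 in Npac KO cells. By contrast, the ratio of Ifitm1 to Ifitm3 was 1.12 and 0.847 in WT1 and WT2, and 0.960 and 0.858 in KO1 and KO2, with the KO values inside the WT range. Within a library, Ifitm1 and Ifitm3 thus held nearly the same proportion to each other, while both were higher relative to Ifitm2 in the Npac KO libraries.

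**Figure D2:**
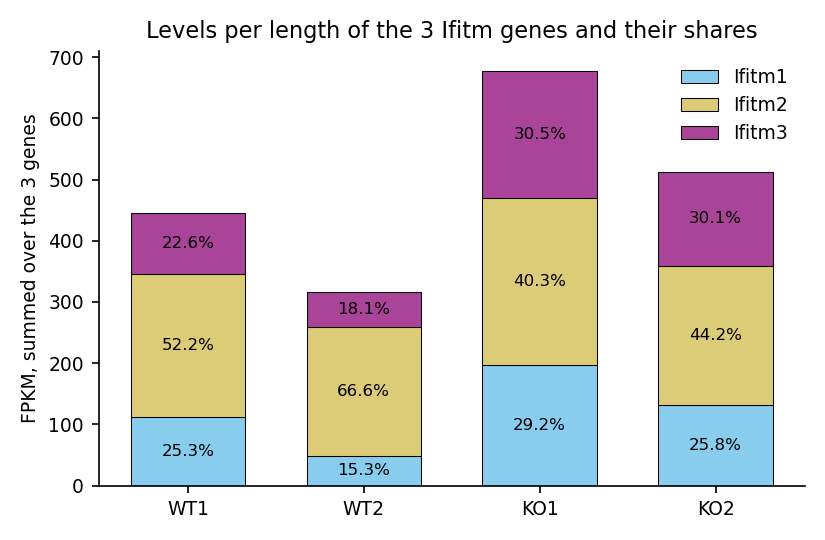
Deposited FPKM (y axis, from 0) of Ifitm1, Ifitm2 and Ifitm3 stacked for each library, with each gene's share of the sum printed in its segment. The Ifitm2 segment is of similar height in all 4 libraries, while its share is 52.2% and 66.6% in WT cells and 40.3% and 44.2% in Npac KO cells.

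The 2 genes that differ most between genotypes also differ most between libraries of 1 genotype. Within the WT pair, WT1 exceeded WT2 by 0.81 on the log2 scale for Ifitm3 and by 0.14 for Ifitm2. Within the KO pair, KO1 exceeded KO2 by 0.56 for Ifitm1, 0.40 for Ifitm3 and 0.25 for Ifitm2, against a median gap of 0.17 over 11683 genes. In both pairs the library numbered 1 was the higher for all 3 genes. The share of reads from the mitochondrial genome was 1.54% and 1.41% in WT1 and WT2, and 1.91% and 1.79% in KO1 and KO2, which is also higher in the library numbered 1 of each pair and higher in Npac KO cells. Its part in the result was not tested.

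**Figure D3:**
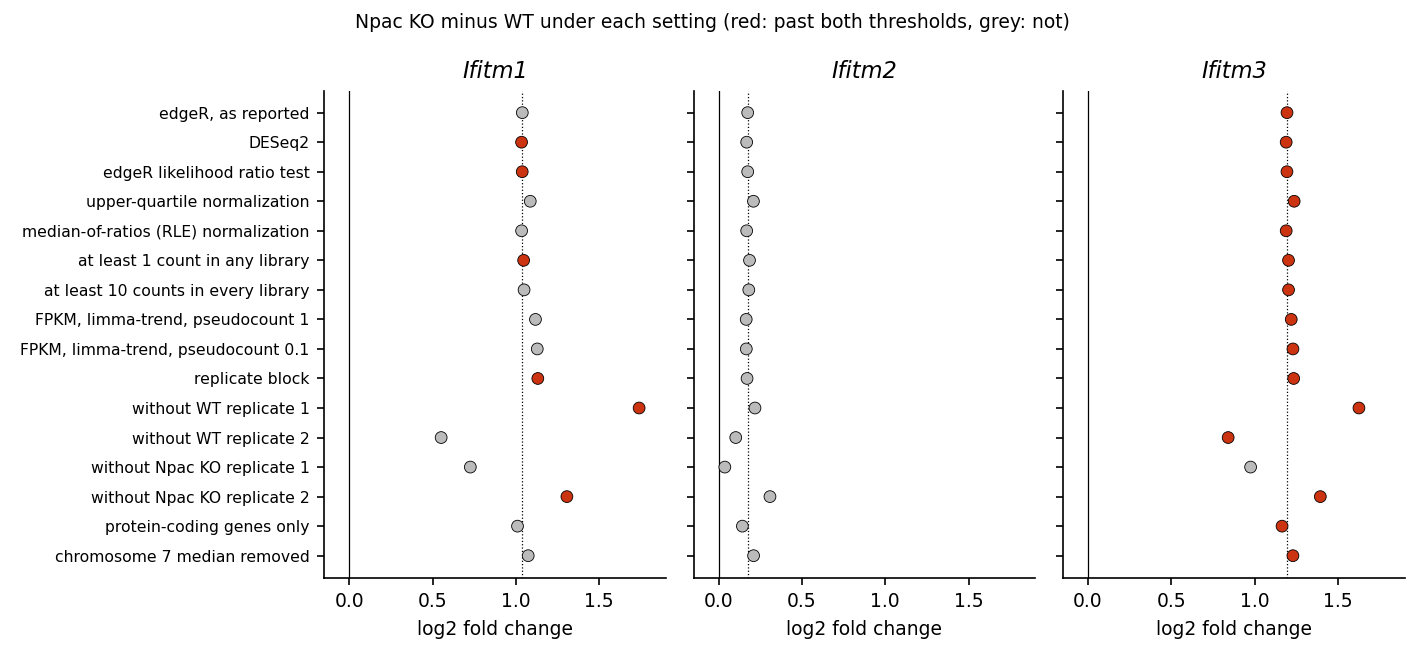
Log2 fold change of Npac KO against WT cells (x axis) for Ifitm1, Ifitm2 and Ifitm3 under the reported fit and each other setting (y axis), with red points past both thresholds, grey points not, and a dotted line at the reported value. The Ifitm3 points stay between 0.84 and 1.63 and are red except without Npac KO replicate 1, the Ifitm1 points spread from 0.55 to 1.74, and no Ifitm2 point is red.

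The counts of Ifitm2 carry a limit of their own. Of the 506 distinct 150-base windows in its GENCODE M21 transcripts, 23.5% also occur in Gm45717, a gene model on the same strand that overlaps Ifitm2 and had no reads in any library. Of its 606 windows of 50 bases, 48.5% occur in another gene, among them several processed pseudogenes. None of the 150-base windows of Ifitm1 or Ifitm3 occurs in another gene, while 53 of the 1056 windows of 50 bases of Ifitm1 and 63 of the 629 of Ifitm3 do. Ifitm3 is overlapped on the opposite strand by a long noncoding RNA, ENSMUSG00000121233, which had between 0 and 3 reads per library. Whether counting used strand is not given in the sources used here, so reads of Ifitm3 and of this RNA may not have been separated. Among the processed pseudogenes that share windows with Ifitm2, Gm11951, Gm2840 and Gm8865 had at most 4, 6 and 16 reads in a library. Whether reads of the shared windows were placed correctly was not tested, so the level of Ifitm2 carries this uncertainty.

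The wider family was little read in these cells. Of the 7 genes named Ifitm in the tables, the 3 members supplied between 99.1% and 99.4% of the summed FPKM in each library. Ifitm5, a gene known from bone, had 30 and 22 reads in WT cells and 20 and 32 in Npac KO cells. Ifitm10 had between 9 and 17 reads, and Ifitm6 had 4, 13, 4 and 4 reads in WT1, WT2, KO1 and KO2 and was too low to be tested. Ifitm7, on chromosome 16, had 38 and 3 reads in WT1 and WT2, and 77 and 21 in KO1 and KO2, and its groups overlapped (log2 fold change 1.22, 95% confidence interval -1.17 to 3.62, adjusted p = 0.426 from edgeR). In a list of 12 further genes of the same CD225 domain family, which holds these 4, 8 were tested and 1 was called higher, against 11.0% of all genes. This was Syndig1l, named after its values were seen, with no reads in either WT library and 17 and 27 reads in Npac KO cells. Of the 8 genes, 5 were higher and 1 was lower in both KO libraries, against 33.2% and 32.5% of all genes tested. Their median log2 fold change was 0.70. The 12 genes together had only 15.1, 8.87, 18.8 and 17.4 CPM in WT1, WT2, KO1 and KO2.

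Interferon ligands were nearly absent. Of 11 interferon genes, among them Ifnb1, Ifng and members of the Ifna group, 8 had no reads in any library and none had more than 4 reads in a library, so that at this depth no difference could have been seen. The receptors were read in all libraries. Ifnar1, a subunit of the type I receptor, had 49.9, 48.5, 39.8 and 44.1 CPM in WT1, WT2, KO1 and KO2 (adjusted p = 0.408 from edgeR). Ifngr1, a subunit of the receptor for interferon gamma, fell from 11.4 and 13.7 CPM to 4.57 and 5.43 CPM, a fold change of 0.399 (adjusted p = 0.0252 from edgeR). It was the 1 gene called among 6 receptor subunits, where 10.7% of all genes tested were called lower, and its call was lost without either KO library.

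Among 10 kinases and transcription factors of the pathway, 1 passed the test, close to the share of 11.0% called higher among all genes. Stat2, a subunit of the complex that binds the ISRE, rose from 36.0 and 48.5 CPM to 73.5 and 79.7 CPM, a fold change of 1.81 (adjusted p = 0.0265 from edgeR), and this call too was lost without either KO library. Irf9, which belongs to the same complex, had 12.0 and 11.2 CPM in WT cells and 16.3 and 14.7 CPM in Npac KO cells (adjusted p = 0.288 from edgeR). Irf1 lay between 22.2 and 26.2 CPM in the 4 libraries, and Irf7, which amplifies the interferon response, lay at or under 1.14 CPM. None of 7 inhibitors of the pathway, such as Socs1, Socs3 and Usp18, was called by edgeR or DESeq2, and none had an unadjusted p under 0.05. Of 12 tested sensors of foreign nucleic acid and their adaptors, 2 were called higher, Dhx58 and Tlr3, which are named after their values were seen and had means under 100 reads. Among all genes tested 11.0% were called higher, and both genes lie on chromosomes that were higher as a whole, Dhx58 on chromosome 11 and Tlr3 on chromosome 8. The call of Dhx58 was lost without KO2 and that of Tlr3 without either KO library.

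The list of other interferon-stimulated genes was mixed. Of 52 genes, 39 were tested, of which 14 were higher (35.9%, against 11.0% of all genes tested). Of the rest, 3 were lower (7.69%, against 10.7%) and 22 were not called. The median log2 fold change was 0.58, against 0.0015 for all genes. With at least 10 counts in every library 6 were higher, and from FPKM with a pseudocount of 1, 8 were. Over all genes those settings called 1561 and 1792 higher. The count of genes called higher was 12 without WT1, 20 without WT2, 3 without KO1 and 6 without KO2. Over all genes the same 4 fits called 2773, 3571, 851 and 826 genes higher, against 1999 with all libraries. Of the 14 genes, 8 had under 10 reads in at least 1 WT library, and 6 lie on chromosomes 8 and 11. Those chromosomes were higher as a whole in Npac KO cells, with medians on the log2 scale of 0.51 for the 979 tested genes of chromosome 8 and 0.50 for the 1455 of chromosome 11, and 26.5% of their tested genes were called higher. Outside them 8 of 28 tested genes of the list were called higher (28.6%, against 8.61% of all tested genes outside them). The ISRE core was found in the windows of 6 of the 13 genes called higher, 1 of the 2 called lower and 5 of the 17 not called that had a window in the RefSeq table. These counts are per gene, while the background share given above is per window. The list holds genes known to respond to interferon, and a difference between the calls was not tested. Chromosome 7, which carries the 3 Ifitm genes, had a median of -0.04 for its 1466 tested genes.

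Bst2, or tetherin, which holds budding virus at the cell surface, rose from 58.7 and 67.8 CPM to 199.8 and 170.3 CPM (fold change 2.93, adjusted p = 0.0029 from edgeR), and lies on chromosome 8. Ly6e, a membrane-anchored factor that also acts on viral entry and lies on chromosome 15, rose from 51.8 and 62.2 CPM to 95.9 and 89.7 CPM (fold change 1.63, adjusted p = 0.0348 from edgeR). The GTPase gene Igtp and Ifi35, both on chromosome 11, and Psmb10, an immunoproteasome subunit gene on chromosome 8, rose by 3.66-, 3.80- and 2.87-fold. In the other direction, Xaf1, whose product binds an inhibitor of apoptosis, fell from 60.9 and 44.4 CPM to 6.56 and 5.43 CPM (fold change 0.114, adjusted p = 0.000716 from edgeR), although it lies on chromosome 11. Oas2, an activator of RNA decay, and Shisa5 also fell, to 0.425 and 0.504 of the WT level. The calls of Bst2, Igtp, Ifi35 and Xaf1 were kept with each library left out in turn, that of Psmb10 was lost without KO1, those of Oas2 and Shisa5 without either KO library, and that of Ly6e without WT1 or either KO library.

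Among the key genes chosen by name, Isg15 and Ifit1 were near zero. Isg15, a ubiquitin-like modifier, had 2, 1, 0 and 2 reads in WT1, WT2, KO1 and KO2, Ifit1 had 1 read in WT2 and none elsewhere. Of other genes of the list, Ifit3 had no reads, while Ifit2 had 2 and 15 reads in WT1 and WT2 and 48 and 50 in KO1 and KO2, and Oas1a had 51 and 70 against 131 and 146. Ifit2 and Oas1a, named after their values were seen, were called higher (adjusted p = 0.0442 and 0.0468 from edgeR), and both calls were lost without either KO library. Among the antigen presentation genes of the list, B2m lay between 17.0 and 20.4 CPM in all 4 libraries (adjusted p = 0.890), and H2-K1 had 62.2 and 102 CPM in WT cells and 60.6 and 63.6 CPM in Npac KO cells (adjusted p = 0.280). The peptide transporter gene Tap1, named after its values were seen, had 6.02 and 13.4 CPM in WT1 and WT2, and 15.2 and 20.2 CPM in KO1 and KO2 (adjusted p = 0.158, edgeR in each case). Over the 6 interferon lists together, 74 genes were tested, of which 17 were higher (23.0%, against 11.0% of all genes tested), 4 were lower (5.41%, against 10.7%) and 53 were not called. Outside chromosomes 8 and 11, 9 of 58 were higher (15.5%, against 8.61% of all tested genes there). Leaving out KO1 or KO2 left 4 or 7 genes called higher and 1 lower, and leaving out WT1 or WT2 left 16 or 27 called higher and 8 lower. Over all genes, leaving out KO1 or KO2 left 851 or 826 called higher, and leaving out WT1 or WT2 left 2773 or 3571.

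**Figure D4:**
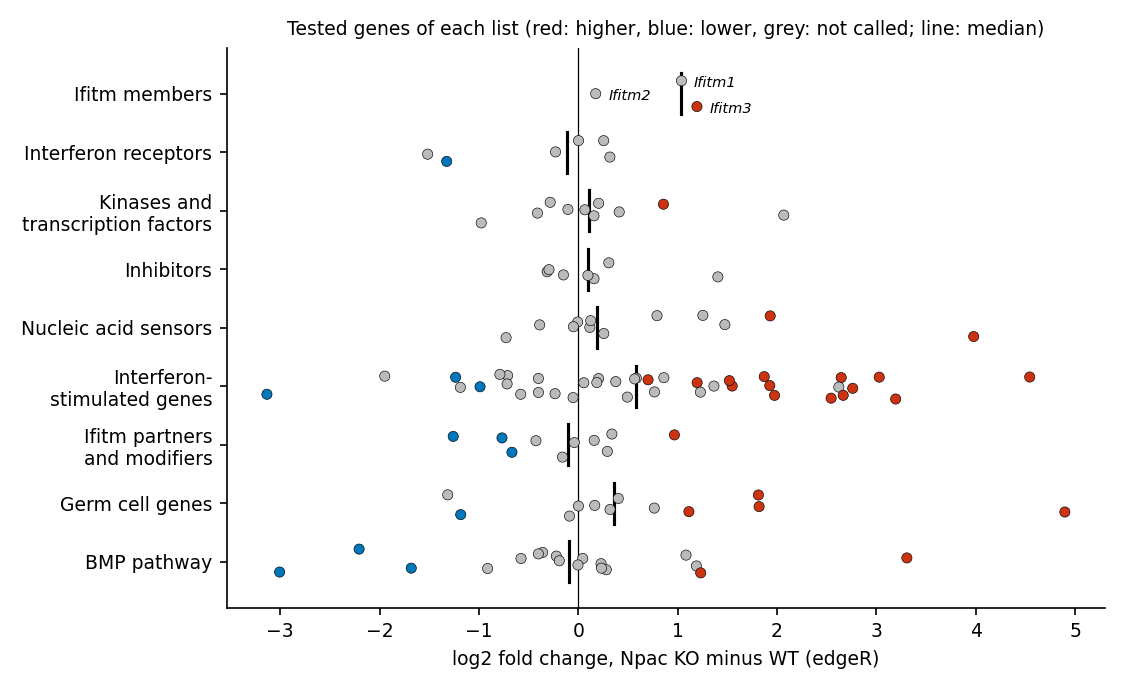
Log2 fold change of Npac KO against WT cells (x axis) for each tested gene of 8 lists and for the 3 Ifitm members (rows), with red for genes called higher, blue for lower, grey for not called, and a black line at the median. Interferon-stimulated genes spread from -3.13 to 4.54 around a median of 0.58, while the medians of the receptor, kinase, inhibitor and sensor lists lie between -0.11 and 0.19.

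Of 11 genes whose products modify or accompany Ifitm proteins, 10 were tested, of which 1 was higher and 3 were lower, where 11.0% and 10.7% of all genes tested were. Cav1, the gene not tested, had between 1 and 4 reads per library. Zdhhc20, an enzyme that palmitoylates Ifitm3, had 86.4 and 60.7 CPM in WT cells and 75.2 and 67.8 CPM in Npac KO cells (adjusted p = 0.914). Vcp, an ATPase that takes part in the turnover of ubiquitinated proteins, rose from 268 and 307 CPM to 599 and 526 CPM (fold change 1.95, adjusted p = 0.0126 from edgeR). Cd81 and Cd9, tetraspanins of which the first forms a membrane complex with Ifitm1, fell to 0.587 and 0.629 of the WT level (adjusted p = 0.0264 and 0.0442). Fyn, a kinase that phosphorylates Ifitm3, fell to 0.418 of the WT level (adjusted p = 0.00513, edgeR in each case). The call of Fyn was kept with each library left out, that of Vcp was lost without KO1, that of Cd81 without either KO library and that of Cd9 without WT1 or either KO library.

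Genes of the primordial germ cell list, in which Ifitm3 is known as an early marker, were tested in full. Of 12 genes, 4 were higher (33.3%, against 11.0% of all genes tested), 1 was lower (8.33%, against 10.7%) and 7 were not called. Dppa3, also called Stella, which follows fragilis in the founding germ cells of the embryo, rose from 1.24 and 0.687 CPM to 34.0 and 23.4 CPM (fold change 29.8, adjusted p = 0.000704 from edgeR). Tfap2c, a transcription factor of germ cell specification, rose from 50.7 and 31.7 CPM to 155 and 134 CPM (fold change 3.51, adjusted p = 0.00445), and Alpl, which encodes tissue-nonspecific alkaline phosphatase, rose 2.16-fold (adjusted p = 0.00659). Nanos3, named after its values were seen, was the fourth gene called higher and lies on chromosome 8. Outside chromosomes 8 and 11, 3 of 11 genes of the list were higher (27.3%, against 8.61% of all tested genes there). Dnd1 and Kit, named after their values were seen, were also higher in both KO libraries without being called (adjusted p = 0.104 and 0.130 from edgeR). Over the list, both KO libraries lay above both WT libraries for 6 genes and below for 2, against 33.2% and 32.5% of all genes. The specification factors Prdm14 and Prdm1 had lower values in both KO libraries. Prdm14 fell from 43.8 and 26.2 CPM to 12.0 and 18.8 CPM (fold change 0.440, adjusted p = 0.0400), and Prdm1 had 25.0 and 8.47 CPM in WT cells and 8.43 and 5.03 CPM in Npac KO cells (adjusted p = 0.109, edgeR in each case). The calls of Dppa3, Tfap2c and Alpl were kept with each library left out, while that of Prdm14 was lost without KO1 and that of Nanos3 without either KO library. Without WT2, 7 genes of the list were called higher, as the count over all genes went from 1999 to 3571.

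Bone morphogenetic protein (BMP) signals precede Ifitm3 expression in the embryo. Of 18 tested genes of that pathway, 2 were higher (11.1%, against 11.0% of all genes tested) and 3 were lower (16.7%, against 10.7%). Bmp4, the ligand known for germ cell induction, fell to 0.124 of the WT level, and the targets Id2 and Smad7 fell to 0.312 and 0.217 of it, while the target Id3 rose 2.35-fold. Id1, another target, had 122 and 231 CPM in WT cells and 85.7 and 102 CPM in Npac KO cells (adjusted p = 0.0634 from edgeR). The other gene called higher, Bmpr1b, had at most 5 reads in a WT library and is named after its values were seen. The calls of Bmp4, Id2 and Smad7 were kept with each library left out, while that of Id3 was lost without KO2 and that of Bmpr1b without KO1. Without WT2, 5 genes of the list were higher, and without WT1, 5 were lower, where over all genes 3571 were higher and 2907 lower in those fits.

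Genes around the cluster were called in both directions, at shares near those of all genes tested. Of 46 tested genes within 500 kb of the cluster, 4 were higher and 4 were lower, with a median log2 fold change of -0.08. On the whole of chromosome 7, 120 of 1466 tested genes were higher (8.19%) and 131 were lower, and among all genes the shares were 11.0% and 10.7%. On the side of Ifitm2, the 4 nearest tested genes were Ifitm5, Pgghg, Nlrp6 and Psmd13, with log2 fold changes of -0.03, -0.09, 0.16 and 0.17. On the side of Ifitm3 they were the pseudogene Gm45299, the noncoding gene ENSMUSG00000120649, B4galnt4 and Pkp3, with log2 fold changes of 1.22, -0.45, -1.20 and -0.47, of which B4galnt4 was called lower (adjusted p = 0.00573 from edgeR), a call that was lost without KO2. Named after their values were seen, the other genes called lower were Ric8a, Sigirr and Cd151, and the genes called higher were Olfr539, Lmntd2, B230206H07Rik and Pidd1. The call of Sigirr was lost without KO2, and those of the other 6 without either KO library, with those of Olfr539 and B230206H07Rik also lost without WT2 and that of Pidd1 without WT1.

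**Figure D5:**
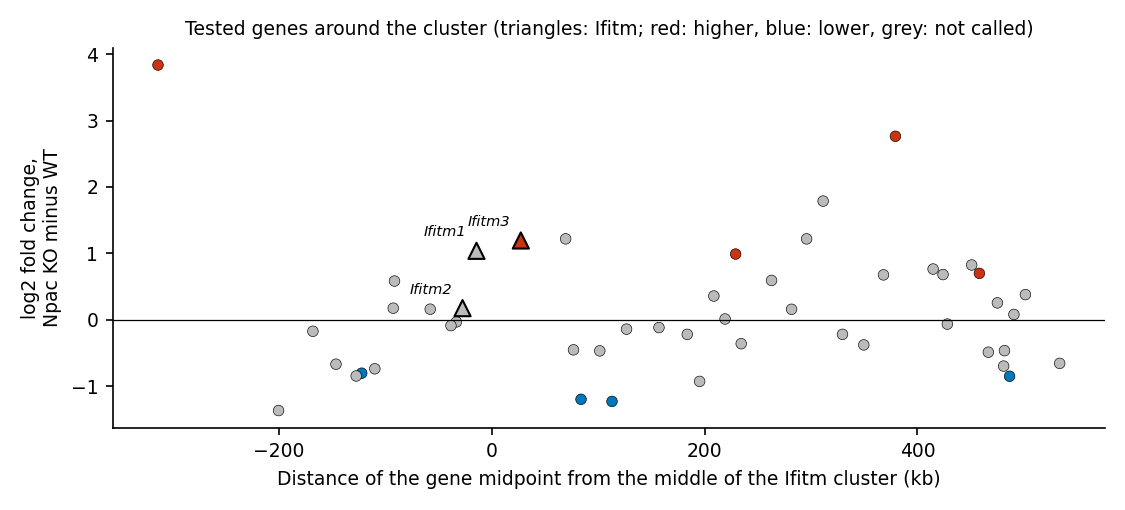
Log2 fold change of Npac KO against WT cells (y axis) for the 46 tested genes around the Ifitm cluster and the 3 members (triangles), by distance of the gene midpoint from the middle of the cluster in kb (x axis), with red for called higher, blue for called lower and grey for not called. Genes on both sides of the members scatter around 0, and the nearest called gene on the Ifitm3 side, B4galnt4, lies at -1.20.

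The genes whose profile over the 4 libraries was most like that of each member were found by the Euclidean distance between centred log2 CPM values, among 11685 genes with a mean of at least 100 reads. For Ifitm3 they were Ubxn2a (distance 0.0534), Prr11 (0.0886) and Tpcn2 (0.0984), the last a gene of chromosome 7 that encodes an endolysosomal ion channel. For Ifitm1 they were Atrx (0.124), Slc6a15 (0.214) and Tenm3 (0.214), and for Ifitm2 they were Dolpp1 (0.0197), Vps51 (0.0246) and Elob (0.0276). Ifitm3 was the 16th nearest gene to Ifitm1, at a distance of 0.323, and Ifitm1 the 47th nearest to Ifitm3, whereas Ifitm2 was at 1.24 from Ifitm1 and 1.17 from Ifitm3. These distances describe 4 libraries and carry no test. Btg2, an antiproliferative gene of the named set, had 17.4 and 44.1 CPM in WT1 and WT2, and 56.6 and 77.1 CPM in KO1 and KO2. Its groups did not overlap, and its fold change of similar size to those of Ifitm1 and Ifitm3 (log2 fold change 1.12) did not pass the test (adjusted p = 0.0817 from edgeR).

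Markers of other cell types were read beside these results, since fewer cells of a type and less RNA per cell cannot be told apart in bulk samples. All 9 embryonic stem cell markers were read in every library, with a summed level of 6320, 4860, 4130 and 3740 CPM in WT1, WT2, KO1 and KO2 and Tdgf1 as the most abundant over the mean of the 4 libraries. Of these 1 was called lower, Zfp42, and 1 higher, Klf2, where among all genes tested, as for the marker counts that follow, 10.7% were lower and 11.0% higher. DESeq2 called 4 of the 9 genes, and the median log2 fold change of the list was -0.42. In both KO libraries 5 of the 9 were lower and 2 higher than in both WT libraries, where 32.5% and 33.2% of all genes tested were. Of 9 fibroblast markers, a cell type rich in Ifitm3, Col3a1 and Dcn were at 0 in all libraries and Lum had 1 read, and the sum was 104, 123, 60.6 and 75.4 CPM, mostly from Thy1 and Fbn1. Of 5 tested, Col1a1 was called higher and Fbn1 lower. Klf2 lies on chromosome 8 and Col1a1 on chromosome 11, which were higher as a whole. The summed endoderm markers, mostly Lama1, were 439, 254, 72.1 and 64.4 CPM, with Lama1 and Sox7 called lower among 7 tested. The summed blood cell markers, mostly Laptm5, were 333, 179, 72.1 and 67.8 CPM, with Laptm5 and Spi1, the latter named after its values were seen, called lower among 3 tested, while Ptprc had no reads in 3 libraries and 8 in WT2. The sums of the stem cell, fibroblast, endoderm and blood cell markers were thus lower in both KO libraries than in both WT libraries, where Ifitm3 was lower, and their part in the result was not tested. The endoderm and blood cell sums rest on Lama1 and Laptm5, and other members had higher values in both KO libraries without being called, namely Gata4, Gata6 and Cubn among endoderm markers and Cd68 among blood cell markers. The same held for Utf1 among stem cell markers and Col1a2 among fibroblast markers. Among fibroblast, endoderm and blood cell markers, 2, 3 and 1 of 5, 7 and 3 tested genes were higher in both KO libraries. There 1, 3 and 2 were lower, where 33.2% and 32.5% of all genes tested were higher and lower. No gene was called by edgeR or DESeq2 among 6 mesoderm or 4 tested trophoblast markers, and none of them had an unadjusted p under 0.05. Many of them were read little, such as T with 9 to 21 and Gata3 with 7 to 28 reads per library, so that a change could have been missed. Of 6 neural markers Neurod1, named after its values were seen, was called higher and Sox1 lower. The summed mesoderm level was 12.0, 16.3, 16.6 and 16.2 CPM and the summed trophoblast level 17.0, 23.3, 19.1 and 21.4 CPM. The summed neural level was 104, 92.4, 99.4 and 111 CPM. Eomes, Plet1 and Tubb3 were the most abundant of these lists. Other members, named after their values were seen, were higher in both KO libraries without being called. These were T, Mixl1, Mesp1 and Tbx6 among mesoderm, Hand1 and Gata3 among trophoblast and Nes among neural markers. The median log2 fold changes of the mesoderm, trophoblast and neural lists were 0.64, 0.89 and 0.24. In these lists 4, 2 and 2 of 6, 4 and 6 tested genes were higher in both KO libraries, and 0, 1 and 2 were lower. Among all genes tested these shares were 33.2% and 32.5%.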

How the data were processed

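RNA-seq libraries of 2 WT and 2 Npac KO samples of E14 cells were used. The authors aligned the read pairs with HISAT (HISAT2 2.0.5 with mm10, and featureCounts 1.5.0-p3, in the submitters' processing notes). They deposited 1 raw count per gene and library. The FPKM that the authors deposited beside them are those counts divided by the listed gene length and by 1 constant per library.

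The count tests used edgeR 4.0.16 in R 4.3.3 (filterByExpr, TMM, quasi-likelihood test). A gene was called at a fold change over 1.5 and a Benjamini-Hochberg adjusted p under 0.05, adjusted over the 18157 genes tested. Confidence intervals are at 95% and come from the fit. The test was checked on simulated counts. DESeq2 1.42.0, limma 3.58.1, other filters and normalizations, a replicate block and leaving out each library were tried as alternatives.

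The members and lists were chosen with earlier results of these data known. Named list genes are key genes chosen by name and, in each direction, up to 4 called genes with the smallest adjusted p and a mean of at least 100 reads. Others are marked. The values of 1 listed gene are not reported here.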

Additional observations from a re-analysis of the deposited data

How the results depend on the processing

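The direction of Glyr1, Ifitm1, Ifitm2 and Ifitm3 held under every alternative run. The call of Ifitm3 held under all 11 settings that keep the 4 libraries (log2 fold change 1.16 to 1.24, adjusted p from 3.32e-06 to 0.0360) and ranged from 0.84 to 1.63 with a library left out, with the call lost without KO1. Ifitm1 passed both thresholds with DESeq2 (1.03, adjusted p = 0.0180), edgeR's likelihood ratio test (1.04, adjusted p = 0.0335), all genes with at least 1 count (1.05) and a replicate block (1.13, adjusted p = 0.000594), and ranged from 0.55 to 1.74 with a library left out. Ifitm2 ranged from 0.14 to 0.21, and from 0.04 to 0.31 with a library left out. The replicate numbers are not stated to pair the libraries, and over the 2 pairs the deviations from the group means correlated at 0.332. With 2 libraries a group, each left-out fit assumes that the lone library varies like the other group.

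Counts of calls moved more. With the replicate block 3128 genes were higher and 2994 lower, against 1999 and 1946, and with a library left out the counts lay between 826 and 3571 and between 821 and 3384. Genes called higher in the interferon lists, 17 as reported, numbered 9 with at least 10 counts in every library, 10 from FPKM with a pseudocount of 1 and 4 to 27 with a library left out. They numbered 9 without chromosomes 8 and 11, which was added once the data had been seen. Genes called lower there, 4 as reported, numbered 7 with the likelihood ratio test, 8 with the block and 1 to 8 with a library left out. In the germ cell list 3 to 7 genes were higher with a library left out. The 1 gene called lower became 2 with DESeq2, with at least 1 count in any library and with the block, 0 from FPKM with a pseudocount of 1 or 0.1, and 0 to 2 with a library left out. The KO minus WT share of Ifitm1, Ifitm2 and Ifitm3 was 8.97, -16.8 and 7.84 percentage points from counts without length, against 7.22, -17.1 and 9.92, and lay between 2.2 and 12.2, -24.3 and -9.95, and 7.70 and 12.2 with a library left out. Calls at low reads are limited by depth, as for the interferon ligands.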
